A study of Mus musculus with 10 samples.

Results

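Clusterin, the product of Clu, was followed in every library of a single-cell study of mouse kidney injury, by day and by cell class. It was 1 of the 28808 gene rows that the count tables held, and its row was present in all 10 of them. In the GENCODE M21 annotation of GRCm38 (mm10), Clu lies on the plus strand of chr14:65968483-65981547, has 9 transcripts, of which Clu-201 has 9 exons, and overlaps 0 other annotated genes. The tissue was kidney cortex from mice 4 weeks of age, dissociated to single cells and profiled by Drop-seq, in which the RNA of each cell is captured on a barcoded bead in a droplet. The control group was normal kidney (1 library). Injured kidneys were sampled on days 1, 2 and 4 (1 library a day) and on days 7, 11 and 14 (2 libraries a day). The labels give the injury by day only, with no kind of injury, strain, sex or genotype. They do not say whether the libraries of a day came from separate animals, so the spread between those libraries may be technical. P-values for changes between groups, and for differences in such changes, rest on that spread. Those that compare 2 kinds of cell within libraries, pooled over days, rest on a spread that also holds differences between days.

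Clusterin is a secreted glycoprotein that acts as a chaperone outside the cell: it binds misfolded proteins and the terminal complement complex and holds them in solution. Receptors of the LDL receptor family, among them megalin (Lrp2) on the brush border of the proximal tubule, take up clusterin with its cargo, and Trem2 on macrophages binds it as well. In the kidney Clu is known as a gene switched on by tubular damage and by obstruction, and clusterin protein in urine is used as a marker of tubular injury.

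After filtering, 52797 of 64803 barcodes were used as cells, 3568 to 6941 per library, with a median of 1244 to 2661.5 unique molecular identifiers (UMIs) per cell. They held 309266 Clu UMIs. Of the cell barcodes, 62 (0.118%) occurred in 2 or more libraries. Each cell was assigned to a class by its own raw marker UMIs, and Clu was in no gate. The distal gate read Slc12a3, Pvalb, Trpm6, Calb1, Trpv5 and Klk1 and so took in distal convoluted and connecting tubule together. Genes that no gate used were highest in the class they are known for in 9 of 10 cases (Lrp2 in proximal, Egf in thick limb, Wnk4 in distal, Gata3 in principal, Atp6v1b1 in intercalated, Podxl in podocyte, Ramp2 in endothelial, Tyrobp in macrophage and Cd8a in T or NK cells). Sparc was the exception: its mean was 11.81 in stromal and 12.11 in podocyte cells on the log2(CPM + 1) scale. A class name is therefore a resemblance. Levels are given as CPM, the Clu count scaled to a fixed total of 1e+06 UMIs over the summed cells of a class in a library.

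Over all cells of a library, the Clu level was 209 CPM in the control, then 6509 (day 1), 3624 (day 2), 2947 (day 4), 6377 and 3739 (day 7), 314 and 262 (day 11), and 175 and 250.1 (day 14). All 5 libraries of days 1 to 7 lay above all 5 others, and the control lay within the range of days 11 and 14. Cells with at least 1 Clu UMI made up 15.03% of the control (exact Clopper-Pearson 95% interval 14.1 to 16.0), 89.0% of day 1 and 80.9% and 59.0% of replicates 1 and 2 of day 7, at different depths.

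In the control kidney Clu was unevenly spread along the nephron. The level was 1443 CPM in distal convoluted and connecting tubule-like cells (95% Poisson interval 1398 to 1490), 317 in principal-like cells of the collecting duct (288 to 347), 173 in endothelial-like cells (143 to 209) and 171 in intercalated-like cells (136 to 212). Thick ascending limb-like cells had 32.0 CPM (27.6 to 36.9) and proximal tubule-like cells 16.5 (14.6 to 18.6). The 64 immune cells of the control held 2 Clu UMIs, or 23.0 CPM (2.79 to 83.2). In CPM, proximal and thick limb levels could therefore not be told apart from that of immune cells at this depth. Counted per cell, thick limb-like cells had 0.257 and proximal cells 0.0712 Clu UMIs. Their median depths were 3971 and 2605 UMIs, against 1181 in immune cells. The intervals given here cover counting error only. Distal convoluted and connecting tubule-like cells were 405 of 6134 control cells and held 62.5% of the library's Clu UMIs. At least 1 Clu UMI was found in 85.7% of them (exact 95% interval 81.9 to 88.9; median depth 4694 UMIs), in 39.6% of principal-like (33.4 to 46.0; 2825 UMIs), in 5.15% of proximal (4.46 to 5.90; 2605 UMIs) and in 3.13% of immune cells (0.381 to 10.8; 1181 UMIs). With every cell thinned to 500 UMIs the shares were 40.04%, 14.01%, 1.06% and 1.81%.

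The distal gate was next divided by 2 of its own markers, a split chosen after the levels had been seen. Pvalb encodes the calcium buffer parvalbumin of the early distal convoluted tubule and Slc12a3 the thiazide-sensitive sodium chloride cotransporter. Of the control cells in the gate, 339 had a Pvalb UMI, 5 had a Slc12a3 UMI without Pvalb, and 61 had neither. The Clu level was 1040 CPM in the first, 2950 in the second and 4414 in the last, which passed the gate on Trpm6, Calb1, Trpv5 and Klk1 alone. Cells with neither UMI were not the highest of the 3 in replicate 1 of day 14, where the 30 cells with Slc12a3 and no Pvalb had 5790 CPM, nor in replicate 1 of day 7, where 1 cell with Pvalb had 23128 CPM. In the same split Pvalb-bearing cells were 21 of the 269 distal cells of day 1, 4 of 180 on day 2, 58 of 257 on day 4, and 1 of 88 and 17 of 181 on day 7, and fewer such cells cannot be told apart from less Pvalb RNA per cell. Within the cells that had neither UMI the Clu level was 4414 CPM in the control, then 27461 (day 1), 21278 (day 2), 16025 (day 4), 22030.4 and 13928 (day 7), 6141 and 6363 (day 11), and 1794 and 4386 (day 14). The cells with neither UMI were 61 of the 405 gated cells of the control and 97 of the 180 of day 2, so the subset need not hold the same kinds of cell on each day. In these values all 5 libraries of days 1 to 7 stood above the control and above days 11 and 14.

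**Figure D1:**
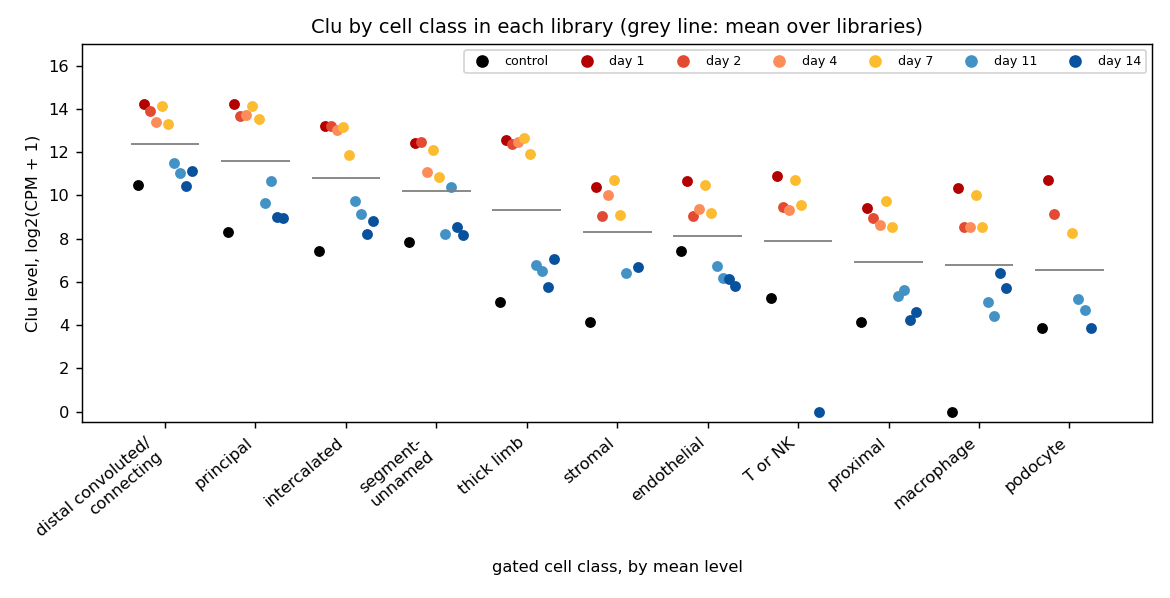
Clu level in each gated class (x axis, ordered by mean) on the log2(CPM + 1) scale (y axis). Each point is 1 library with at least 20 cells of the class, coloured by group, and the grey line is the mean over those libraries. Distal convoluted and connecting tubule-like cells had the highest mean (12.35). The podocyte mean (6.53) covers 7 libraries, the T or NK mean 7 and the stromal mean 8, against 10 for the other classes, so their places in the order also depend on which libraries they cover.

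Averaged over the libraries with at least 20 cells, the classes fell in the order distal (12.35 on the log2(CPM + 1) scale), principal (11.59), intercalated (10.78), segment-unnamed tubular (10.21), thick limb (9.31), stromal (8.31), endothelial (8.10), T or NK (7.88), proximal (6.92), macrophage (6.76) and podocyte (6.53). Stromal cells reached 20 cells in 8 libraries and T or NK and podocyte cells in 7, so their places rest on other libraries than those of their neighbours. Over shared libraries 2 pairs stood the other way round: stromal below endothelial cells by -0.32 (8 libraries, adjusted p = 0.859, exact permutation test) and macrophage below podocyte cells by -0.35 (7 libraries, adjusted p = 0.804, exact permutation test). Of the 10 neighbouring pairs in this order, 1 differed beyond its spread over libraries. Principal-like cells were above intercalated-like cells in 9 of 10 libraries, by 0.81 ± 0.55 (SD, n = 10 libraries; two-sided exact sign-flip permutation test, p = 0.00391, adjusted p = 0.0391 over the 10 pairs). Distal cells were above principal cells in 7 of 10 libraries, by 0.77 ± 1.02 (exact permutation test, n = 10, p = 0.0605, adjusted p = 0.202). In the libraries of days 1, 2, 4 and 7 the means lay close, at 13.86 in principal and 13.79 in distal cells. In the other libraries they were 9.31 and 10.91. Principal cells were the higher on days 1 and 4 and in replicate 2 of day 7. Distal cells were the higher on day 2 and in replicate 1 of day 7. These subsets of libraries were compared as values only.

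Among tubular cells as a whole, Clu rose from the control to day 7, with a log2 change of 4.29 (SE 0.38, Benjamini-Hochberg adjusted p = 4.04e-05, edgeR quasi-likelihood test). In that comparison 16.5% of all genes tested were called higher and 18.5% lower. From day 7 it fell by 3.66 to day 11 (SE 0.27, adjusted p = 1.25e-05, the same edgeR test; 21.0% of genes were called lower) and by 4.10 to day 14 (SE 0.28, adjusted p = 4.16e-06, the same edgeR test; 22.0% called lower). With cells that passed exactly 1 gate the latter was -5.09. Neither day 11 (0.63, SE 0.31, adjusted p = 0.183) nor day 14 (0.20, SE 0.30, adjusted p = 0.728) passed against the control in edgeR's quasi-likelihood test, and the day 11 to day 14 difference did not pass either (-0.43, SE 0.25, adjusted p = 0.292). With at most 25% mitochondrial UMIs per cell, day 11 was called higher than the control (1.25) and the change from control to day 7 was 4.97. The make-up of the tubular sums changed as well. They held 3749 proximal and 38 segment-unnamed cells in the control. On day 7 they held 359 and 621 proximal and 980 and 762 segment-unnamed cells. The part of this shift in the tubular changes, here and in later comparisons with other classes, was not tested. The control has 1 library and was assumed to vary like the replicated days. Days 1, 2 and 4 also have 1 library each and entered the model, but not a tested comparison.

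**Figure D2:**
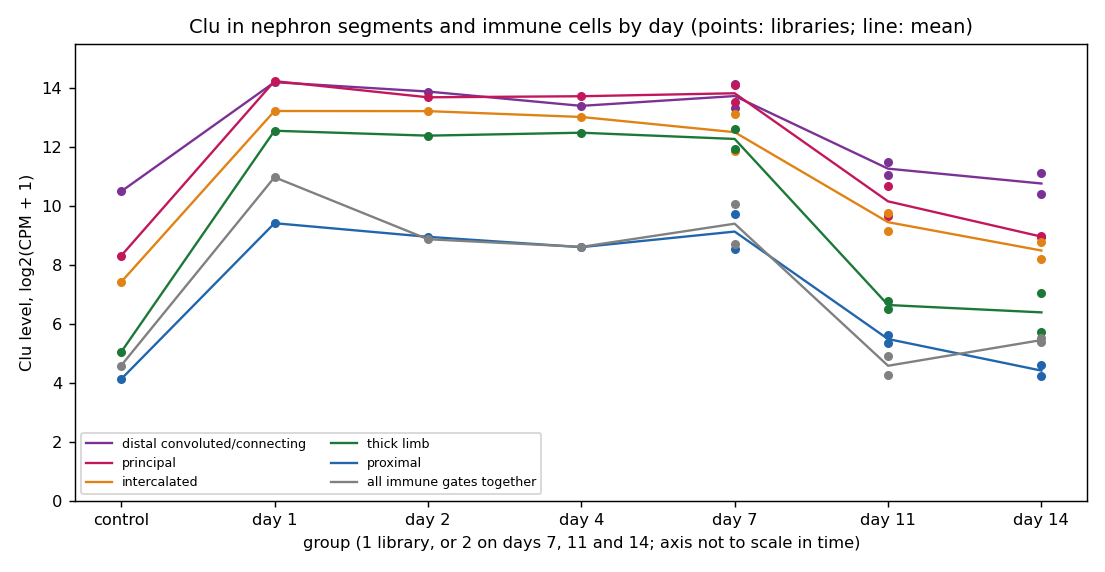
Clu level (y axis, log2(CPM + 1)) in 5 nephron segment classes and in all immune gates together, by group (x axis, not to scale in time). Points are libraries and lines join group means. In all 5 segments every library of days 1 to 7 lay above every other library, and the proximal line ran close to the immune line in the control and on days 2, 4 and 7.

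Thick ascending limb-like cells, which reabsorb salt by Slc12a1 and secrete uromodulin, showed the largest ratio to the control among the segment classes. Their Clu level was 32.0 CPM in the control, then 6021 (day 1), 5365 (day 2), 5749 (day 4), 6337 and 3889 (day 7), 109 and 89.8 (day 11), and 52.4 and 131 (day 14). The injured libraries up to day 7 were 121 to 198 times the control. The control level of 32.0 CPM could not be told apart from that of immune cells, so these ratios rest on a low value in 1 library. All libraries of days 11 and 14 were still above the control, at 1.64 to 4.10 times. The log2 change from control to day 7 was 6.64 (SE 0.48, Benjamini-Hochberg adjusted p = 2.00e-08, edgeR quasi-likelihood test; 10.1% of genes were called higher), and the fall from day 7 to day 14 was -5.14 (SE 0.33, adjusted p = 1.94e-09, the same edgeR test; 9.35% were called lower). Day 14 missed the threshold against the control (1.50, SE 0.38, adjusted p = 0.0547 by the same edgeR test), but was called higher without the filter on low counts (1.40) and without replicate 1 of day 14 (2.02). Without replicate 2 of day 14 it was 0.67, and the change from day 7 to day 14 was then -5.97.

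Principal-like cells, which carry the vasopressin-regulated water channel Aqp2, were the class with the most Clu UMIs in each library of days 1 to 7. They had 317 CPM in the control, then 19362 (day 1), 13225 (day 2), 13560 (day 4), 17827 and 11859 (day 7), 800 and 1633 (day 11), and 505 and 492 (day 14). The 5 libraries of days 1 to 7 were 37.4 to 61.1 times the control and did not overlap the others. In the edgeR quasi-likelihood test, with Benjamini-Hochberg adjusted p, the log2 change from control to day 7 was 5.30 (SE 0.42, adjusted p = 3.89e-08), with 4.34% of genes called higher. The change from day 7 to day 14 was -4.55 (SE 0.29, adjusted p = 1.98e-09, same edgeR test), with 7.47% called lower. With 1 more marker required in every gate these were 4.03 and -3.79, and with cells that passed exactly 1 gate the second was -5.42, all called. Day 14 stood 0.75 above the control (SE 0.33, adjusted p = 0.283, same edgeR test).

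Intercalated-like cells, the acid- and base-secreting cells of the collecting duct, had 171 CPM in the control, then 9581 (day 1), 9552 (day 2) and 8326 (day 4). Later levels were 9007 and 3762 CPM (day 7), 865 and 566 (day 11), and 291 and 443 (day 14). The library of day 7 with the lower level was still 22.1 times the control. The log2 change to day 7 was 4.67 (SE 0.53, Benjamini-Hochberg adjusted p = 8.22e-07, edgeR quasi-likelihood test, 2.50% of genes called higher), and that from day 7 to day 14 was -3.68 (SE 0.38, adjusted p = 7.98e-08, same edgeR test, 3.55% called lower). Without replicate 1 of day 7 these changes were 3.93 and -3.00, and with at most 25% mitochondrial UMIs the first was 5.60. Day 14 against the control gave 0.99 (SE 0.47, adjusted p = 0.543, same edgeR test), and 2.13 with at most 25% mitochondrial UMIs.

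Distal convoluted and connecting tubule-like cells had 1443 CPM in the control, then 18869.8 (day 1), 15145 (day 2), 10810 (day 4), 18188 and 10199.6 (day 7), 2890.15 and 2108 (day 11), and 1374 and 2203 (day 14). Starting from the highest control level, they stood at 7.07 to 13.1 times it on days 1 to 7. Their levels there ran from 10199.6 to 18869.8 CPM, and those of principal cells from 11859 to 19362 CPM. The share of these cells with a Pvalb UMI, which had the lowest control level within the gate, was 339 of 405 in the control and 1 of 88 and 17 of 181 on day 7. In the cells with neither a Pvalb nor a Slc12a3 UMI the control had 4414 CPM and days 1 to 7 had 13928 to 27461 CPM, a smaller ratio than in the whole gate. The log2 change to day 7 was 2.54 (SE 0.37, Benjamini-Hochberg adjusted p = 2.79e-05, edgeR quasi-likelihood test, 8.54% of genes called higher), and that from day 7 to day 14 was -2.29 (SE 0.28, adjusted p = 2.10e-06, same edgeR test, 8.73% called lower). With cells that passed exactly 1 gate these were 3.19 and -2.94. Day 14 against the control was 0.25 (SE 0.33, adjusted p = 0.761, same edgeR test).

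Whether the segments changed by different amounts from control to day 7 was tested within the libraries as an interaction. The change in distal cells was smaller than that in principal cells by 2.79 on the log2 scale (-2.79, SE 0.28, Benjamini-Hochberg adjusted p = 2.68e-13, edgeR quasi-likelihood test; 4.08% of genes were called in that direction), and by less with 1 more marker required in every gate (-1.30, still called). Thick limb exceeded proximal by 2.43 (SE 0.28, adjusted p = 5.55e-08, same edgeR test; 11.1% called higher) and principal by 1.38 (SE 0.28, adjusted p = 3.52e-04, same edgeR test; 3.96% called higher), the latter not called by DESeq2 (1.43) and 2.63 with 1 more marker in every gate. Principal exceeded proximal by 1.04 (SE 0.25, adjusted p = 5.14e-04, same edgeR test; 10.8% called higher). This last difference was not called with 1 more marker required in every gate (0.17), by DESeq2 (0.94) or without replicate 2 of day 7 (0.67). The part of the fewer Pvalb-bearing cells in the distal gate on day 7 in the distal difference was not tested. The fits in distal, principal and intercalated cells and the 4 differences between segments were added after the levels had been seen. All rest on the 1 control library, where thick limb and proximal levels in CPM could not be told apart from that of immune cells.

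**Figure D3:**
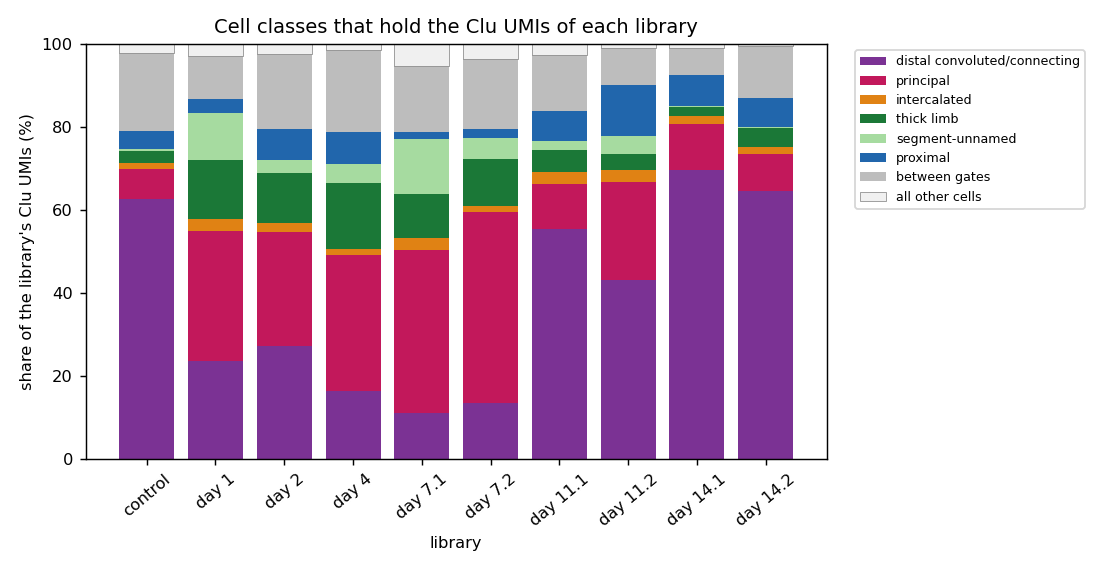
Share of the Clu UMIs of each library (y axis, %) held by each gated class (stacked colours), with the libraries on the x axis (7.1 is replicate 1 of day 7, and so on). The distal share was 62.5% in the control and 11.1% and 13.5% on day 7, when the principal share stood at 39.3% and 45.9%.

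The cells that held the library's Clu changed with the day. Distal convoluted and connecting tubule-like cells held 62.5% of Clu UMIs in the control, then 23.6% (day 1), 27.1% (day 2), 16.4% (day 4), 12.3% ± 1.72 (day 7), 49.2% ± 8.64 (day 11) and 67.1% ± 3.67 (day 14), the last 3 as mean ± SD of n = 2 libraries. Principal-like cells held 7.37%, 31.3%, 27.5%, 32.7%, 42.6% ± 4.71, 17.3% ± 9.08 and 9.96% ± 1.40 (SD, n = 2) in the same order. Thick limb-like cells held 3.08% in the control, 10.7% to 16.0% in the libraries of days 1 to 7 and 2.31% to 5.31% after that. The thick limb, distal, principal and intercalated classes together held 63.8% to 84.8% in every library. Proximal tubule-like cells, 3749 of the 6134 control cells, held 4.35% of Clu UMIs there and 1.80% to 12.3% in the injured libraries. These shares also move with the number of cells of each class that were captured, and fewer cells of a class and less RNA per cell cannot be told apart in them.

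Single cells of the distal segments carried Clu at a large share of their RNA. In principal-like cells the median cell gave 1.60% (day 1), 1.10% (day 2), 0.992% (day 4), 1.62% and 0.963% (day 7) of its UMIs to Clu, against a median of 0 in the control and on days 11 and 14. More than 1% of UMIs were Clu in 49.4% to 71.3% of principal-like cells on days 1 to 7, in 38.7% to 64.8% of distal and in 9.38% to 24.6% of thick limb-like cells. The highest value among tubular cells was 7.17% of a cell's UMIs, in a segment-unnamed cell of day 1. Among proximal cells the share with more than 1% was 0.434% at most on those days, and among immune cells 1.84% at most. In principal and distal cells the 10th percentile was above 0 in every library of days 1 to 7.

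**Figure D4:**
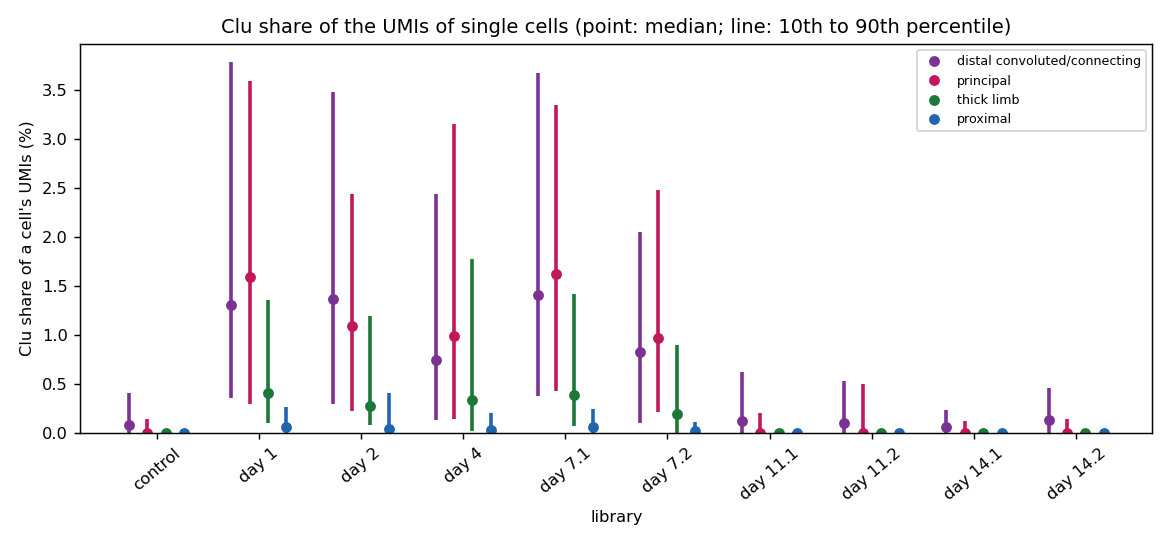
Share of a cell's UMIs that were Clu (y axis, %) in 4 classes by library (x axis). Points are medians over cells and lines run from the 10th to the 90th percentile. Principal and distal medians reached 1.62% and 1.41% on day 7, while proximal medians were 0.0627% at most.

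Proximal tubule-like cells, the segment that carries the injury marker Havcr1 (KIM-1), had the lowest Clu level of the tubular classes in every library. This covers only cells that passed the proximal gate, which asked for 5 UMIs over 3 markers, against 3 over 2 for the other segments. Segment-unnamed cells with a Havcr1 UMI had 3376 CPM (day 1), 4673 (day 2), 1266 (day 4), and 1923 and 970 (day 7). Which segment those cells came from was not tested. The level of the gated proximal cells was 16.5 CPM in the control, then 684 (day 1), 496 (day 2), 389 (day 4), 852 and 369 (day 7), 40.2 and 47.9 (day 11), and 17.7 and 23.4 (day 14). The libraries of days 1 to 7 did not overlap the others, and day 7 was called higher than the control (4.31, SE 0.48, Benjamini-Hochberg adjusted p = 5.70e-05, edgeR quasi-likelihood test, 18.0% of genes called higher). The change from day 7 to day 14 was -4.15 (SE 0.35, adjusted p = 6.44e-06, same edgeR test, 19.4% called lower), and day 14 was 0.16 from the control (SE 0.39, adjusted p = 0.828, same edgeR test). Without replicate 1 of day 7, the change from the control to day 7 in proximal cells was 3.63 and that from day 7 to day 14 was -3.47. Immune cells, read as the background class, moved with the proximal cells. All immune gates together had 23.0 CPM in the control, then 2017 (day 1), 469 (day 2), 391 (day 4), 1078 and 423 (day 7), 29.0 and 18.1 (day 11), and 45.4 and 40.4 (day 14). On days 1 to 7 the proximal level was 0.339 to 1.06 times the immune level, and the principal level 9.60 to 34.7 times. In Clu UMIs per cell the proximal value was 0.774 (day 1), 1.49 (day 2), 2.16 (day 4), 1.32 and 2.27 (day 7) times the immune value. In the control and on days 11 and 14 the immune cells held only 2 to 4 Clu UMIs per library, and no ratio is given. At least 1 Clu UMI was found in 56.7% to 77.9% of proximal and 36.5% to 88.1% of immune cells on days 1 to 7, at median depths of 1834 to 2950 and 1291.5 to 2226 UMIs. Thinned to 500 UMIs per cell the shares were 16.7% to 34.6% and 14.4% to 57.4%. Free RNA taken up in droplets can add to the counts of every class, by an amount in CPM that need not be alike between classes. The part of it in the proximal and immune values was not tested.

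Macrophage-like and endothelial-like cells, which lie outside the nephron, were also highest on days 1 to 7. Macrophage-like cells had 0 Clu UMIs in 36 control cells, which allows up to 59.1 CPM at a floor of 3 counts, then 1287 (day 1), 370 (day 2), 374 (day 4), 1030 and 372 (day 7), 32.8 and 20.6 (day 11), and 83.0 and 51.6 (day 14). Pooled over both libraries of day 7 and on TMM-scaled totals, the level was at least 8.91-fold higher than in the control, taken at that floor; the level of replicate 2 alone lay nearer the floor. The change was called (Benjamini-Hochberg adjusted p = 7.95e-04, edgeR quasi-likelihood test, 1.22% of genes called higher), though not by DESeq2 or without the filter on low counts. The change from day 7 to day 14 was -3.32 (SE 0.58, adjusted p = 6.60e-04, same edgeR test, 1.13% called lower), from 2508 UMIs on day 7 to 3 in each library of day 14, and it was not called without the filter on low counts (-3.66). Without replicate 1 of day 7 it was -2.50.

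Endothelial-like cells had 173 CPM in the control, then 1626 (day 1), 528 (day 2), 656 (day 4), 1438 and 582 (day 7), 104 and 72.4 (day 11), and 68.7 and 54.5 (day 14). All 4 libraries of days 11 and 14 lay below the control. On days 1 to 7 the endothelial level was 0.806 to 1.68 times that of immune cells, and the part of free RNA in it was not tested. The change to day 7 was 2.31 (SE 0.42, Benjamini-Hochberg adjusted p = 0.00212, edgeR quasi-likelihood test, 1.51% of genes called higher), and that from day 7 to day 14 was -3.82 (SE 0.40, adjusted p = 3.62e-06, same edgeR test, 1.43% called lower). Replicate 1 of day 7 bore on both: without it they were 1.57 and -3.08. Day 14 against the control was -1.50 (SE 0.47, adjusted p = 0.135, same edgeR test), and was called lower without the filter on low counts (-1.56). The rise to day 7 was larger in tubular than in endothelial-like cells by 2.17 (SE 0.26, adjusted p = 2.46e-14, edgeR interaction, same test; 5.10% of genes called higher), and by 2.76 with at most 25% mitochondrial UMIs and 2.80 with cells that passed exactly 1 gate. Between tubular and macrophage-like cells no difference in that change was called (adjusted p = 0.452, same edgeR test), where the control macrophages held no Clu UMI. In a split chosen after the levels were seen, control endothelial-like cells with a UMI of Ehd3, a glomerular endothelial gene, had 86.4 CPM (177 cells), those with Plvap, a gene of fenestrated capillaries outside the glomerulus, and without Ehd3 had 174 CPM (38 cells), and those with neither had 494 CPM (61 cells).

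Segment-unnamed tubular cells were gated on general epithelial markers alone and were 38 of the control cells, 930 on day 1 and 980 and 762 on day 7. Their Clu level was 230.2 CPM in the control, then 5480 (day 1), 5709 (day 2), 2171 (day 4), 4335 and 1863 (day 7), 296 and 1322 (day 11), and 373 and 287 (day 14). In replicate 2 of day 11, 12 of 56 cells had a Clu UMI (21.4%, against 17.4% to 27.6% in the other libraries of days 11 and 14) and 3 cells gave more than 1% of their UMIs to Clu, so its higher level rests on a few cells. The change to day 7 was 3.51 (SE 0.56, Benjamini-Hochberg adjusted p = 1.59e-05, edgeR quasi-likelihood test, 1.72% of genes called higher), that from day 7 to day 14 was -3.39 (SE 0.45, adjusted p = 8.58e-07, same edgeR test, 1.01% called lower), and day 14 was 0.12 from the control (SE 0.62, adjusted p = 0.996, same edgeR test). With replicate 1 of day 7 left out, the change to day 7 was 2.78 and that from day 7 to day 14 was -2.63. With the replicate number as a block over days 7, 11 and 14, the change from day 7 to day 14 was not called. With 1 more marker in every gate, the change to day 7 was 4.43 and day 14 stood 1.54 above the control, not called.

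Cells with a Havcr1 UMI were compared with those without within each library, since Havcr1 and Clu are both read as injury genes. Among all tubular cells the Havcr1-positive cells had the lower Clu level in 10 of 10 libraries. On day 1 it was 3680 CPM with and 10273 without Havcr1, on day 2 it was 730.1 and 4339, on day 4 it was 1694 and 4287, and on day 7 it was 3083 and 10813 in replicate 1 and 1158 and 6863 in replicate 2. The ratio of positive to negative cells ran from 0.0404 to 0.828, with a median of 0.226. The lowest was that of the control, where 34 positive cells held 4 Clu UMIs. Positive cells held 3 in replicate 2 of day 11 and 5 in replicate 2 of day 14. The ratios of these libraries rest on few counts. Positive cells were proximal in 34 of 34 cases in the control, 33 of 39 and 27 of 27 on day 11, and 51 of 53 and 51 of 51 on day 14. There the comparison set mostly proximal cells, the class with the lowest level, against cells of all tubular classes. Class make-up and Havcr1 cannot be told apart in it, and the test over all tubular cells includes these libraries. The log2 difference was -2.26 (SE 0.26, Benjamini-Hochberg adjusted p = 1.60e-06, edgeR quasi-likelihood test and libraries as blocks, 15.6% of genes called lower). Havcr1-positive cells were the deeper ones in every library, with a median of 1767 against 1392 UMIs on day 1, for example.

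The segments differ in how many of their cells carry Havcr1. On day 7 a Havcr1 UMI was found in 63.5% and 54.3% of proximal, 41.4% and 39.5% of segment-unnamed, 18.3% and 7.10% of thick limb and 9.74% and 6.30% of principal-like cells. In the same order the shares were 70.1%, 41.3%, 25.5% and 26.2% on day 1. They were 9.98%, 15.9%, 3.16% and 2.59% on day 2 and 55.1%, 58.6%, 27.6% and 27.7% on day 4. On days 2 and 4 segment-unnamed cells thus stood above proximal cells. Within proximal cells alone the difference in Clu was -0.29 (SE 0.22, adjusted p = 0.389, same edgeR test; lower in 8 of 10 libraries) and it was called without replicate 1 of day 11 (-0.53). Within the 4 distal segment classes it was -0.23 over the 4 libraries with enough cells (SE 0.06, adjusted p = 0.144, same edgeR test; lower in 3 of 4). Within segment-unnamed cells it was -1.29 over 5 libraries (SE 0.14, adjusted p = 2.17e-06, same edgeR test, lower in 5 of 5, 3.12% of genes called lower). In that class Havcr1 was itself one of the gate's markers, so a cell could enter it through Havcr1. Proximal cells with Havcr1 held only 4 Clu UMIs in the control and 3 in replicate 2 of day 11. On day 14 they held 2 and 5. With and without Havcr1, proximal cells had 625 and 983 CPM on day 1 and 248 and 587 on day 2. Day 4 had 387 and 394 CPM. On day 7 they had 848 and 867 CPM in replicate 1 and 396 and 275 in replicate 2. Replicate 1 of day 11 had 258 and 37.1 CPM.

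**Figure D5:**
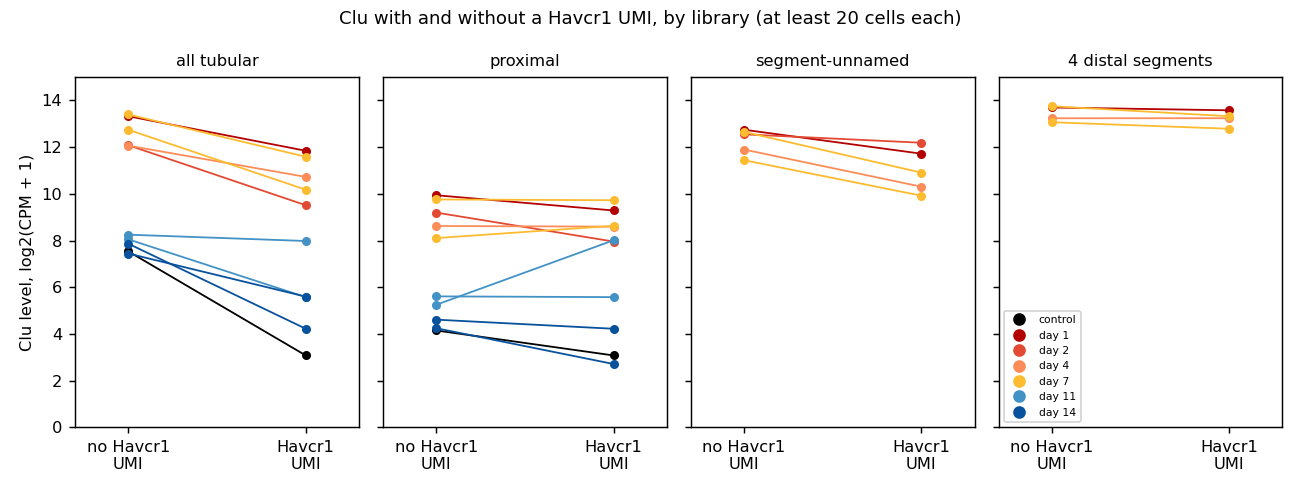
Clu level (y axis, log2(CPM + 1)) in cells without and with a Havcr1 UMI (x axis) among all tubular cells and within 3 groups of classes. Each line is 1 library with at least 20 cells on both sides, coloured by group. All 10 lines fall in the first panel and 8 of 10 in the second. In the first panel most or all Havcr1-positive cells of the control and of days 11 and 14 were proximal. In the third 5 of 5 fall, and in the last 3 of 4. In the second panel the Havcr1 side held 4 Clu UMIs in the control and 3 in replicate 2 of day 11. It held 2 and 5 on day 14.

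The genes around clusterin were read from the tubular sums of day 7 against the control, beside all 16435 genes tested (16.5% higher, 18.5% lower, median log2 change 0.04). These sums held 3749 proximal cells in the control and 359 and 621 on day 7. Cell make-up and level per cell are therefore mixed in all list results, and the part of each was not tested. Of 6 receptors of clusterin, 2 were higher and 2 lower, with a median of -0.06. Lrp2, the megalin gene, fell by 3.52 (SE 0.22, Benjamini-Hochberg adjusted p = 1.30e-05, edgeR quasi-likelihood test). Within proximal cells the Lrp2 level was 1866 CPM in the control, then 766 (day 1), 1101 (day 2), 665 (day 4), 736 and 417 (day 7), 719 and 706 (day 11), and 1465 and 1421 (day 14), so that all libraries of days 1 to 11 lay below the control and day 14. Vldlr fell by 1.15 and Scarb1, the HDL receptor, rose by 1.87. Trem2 was called higher in tubular sums, where its level was 0.112 CPM in the control and 15.1 and 3.69 CPM on day 7. In macrophage-like cells, where it is known to act, Trem2 stood at 59.1 CPM in the control, then 78.3 (day 1), 101 (day 2), 250.2 (day 4), 297 and 402 (day 7), 213 and 309 (day 11), and 111 and 68.8 (day 14). The control value equals the floor of 3 counts over its 36 macrophage-like cells. The day 14 values lie little above that floor in their own libraries, so both ends of the series rest on few counts.

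Of 10 tested kidney injury markers read in urine, 8 were called higher on day 7 and the other 2 did not pass, with a median of 3.21. Havcr1 rose by 8.35, Lcn2 (NGAL) by 7.91 and Spp1 (osteopontin) by 3.42. Timp1 was also called higher, from 0.0747 CPM in the control to 18.6 and 24.96 CPM on day 7. The classes that carried them differed. On day 7 the Havcr1 level was 2464 and 1246 CPM in proximal and 80.3 and 19.0 CPM in principal-like cells. Lcn2 was at 177 and 130.5 CPM in proximal and at 2152 and 3132 CPM in principal-like cells, the same side as Clu. Spp1 was at 9478 and 13871 CPM in proximal and 16552 and 26112 CPM in thick limb-like cells. On day 14, when Clu did not pass against the control, 3 of these 10 markers were called higher in tubular sums, B2m (2.05), Lcn2 (1.62) and Igfbp7 (0.93), where 3.50% of all genes were called higher.

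Of 8 other secreted chaperones and complement inhibitors tested, 2 were higher and 2 lower, with a median of 0.44. Apoe rose by 4.00 and Sparc by 3.50, while the protease inhibitor Pzp fell by 4.62 and A2m, at 1.0 CPM in the control sums, by 3.04. Of 18 chaperones and stress genes of the endoplasmic reticulum, where clusterin is folded, 9 were lower and the other 9 did not pass, with a median of -0.60. Herpud1 fell by 1.79, Creld2 and Canx by 1.10 and Hsp90b1 by 0.95. Of 16 genes reported to regulate Clu, 12 were higher and 1 lower, with a median of 1.46: Tgfb1 rose by 4.21, Myc by 3.09 and Mybl2 by 2.38, and the 1 that fell, named after its value was seen, was the heat shock factor Hsf2 (-1.40). Of 9 genes of the BCL2 family and its partners, which set the threshold for cell death, 5 were higher and the other 4 did not pass, with a median of 0.91. Pmaip1 rose by 2.57, Bbc3 by 2.52, Bak1 by 1.84 and Mcl1 by 0.95. Genes of blood, immune cells and other segments were measured in the same sums. Of 10 such genes 6 were higher and 2 lower, led by Lyz2 (9.46), C1qb (6.62) and C1qa (6.30) of macrophages and Hba-a1 of red cells (5.60). Hba-a1 was at 428 CPM in replicate 1 and 5.54 in replicate 2 of day 7, against 2.43 in the control, so its change rests on 1 library. In principal-like cells C1qa was at 0 in 3 of 10 libraries and at 46.2 and 12.7 CPM on day 7. Lyz2 was higher there, at 640 and 155 CPM on day 7 against 0 in the control. In proximal cells Lyz2 was at 828 and 182 CPM on day 7 against 0.370 in the control. The part of such RNA in the list results was not tested.

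Genes whose pattern over the 10 tubular sums was most like that of Clu were chosen by Pearson's r on the log2(CPM + 1) scale among 4482 genes. Among the 10 most like were Ehd4 (r = 0.997), Ccdc55, Car2 and Uchl5 (each 0.99), and Slc38a2, Aimp1, Sh3bgrl3, Tapbpl and Hs6st1 (each 0.98). The 10 points share libraries, depth and the make-up of the tubular sums, and r is a description. Ehd4, an endocytic ATPase, was at 9.37 CPM in the control, then 137 (day 1), 81.3 (day 2), 65.8 (day 4), 161 and 85.4 (day 7), 14.8 and 10.5 (day 11), and 9.11 and 10.1 (day 14). Its mean was higher in endothelial-like (9.37 on the log2(CPM + 1) scale) than in distal cells (5.51), unlike that of Clu. Over the means of the 11 classes, the most like among 8026 genes were Ptgfr (r = 0.96), Pgam2, Tmem52b and Defb1 (each 0.95) and Ermp1 (0.94). All 5 stood highest in distal cells, Defb1 by the narrowest margin (11.63 against 11.62 in principal-like cells).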

How the data were processed

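The deposited values are counts per gene and cell barcode in 1 table per library, whole numbers that were read as UMI counts, which the labels do not state. Per the submitters' processing notes, Bowtie2 2.2.7 and mm10 were used; the filters and the gene models are not given in the sources used here. Clu, its gates and the gene lists were chosen with earlier results of these data known.

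A barcode counted as a cell if it had 500 UMIs and 500 genes or more, of which 50% of UMIs at most were mitochondrial. The filter on genes acted on the day 11 tables, which start at 300 genes, and removed 5391 and 5428 barcodes there together with the other filters. A cell entered a class with at least 3 UMIs over at least 2 of its markers (5 over 3 for proximal, macrophage and neutrophil). A cell that passed several gates went to the one with most marker UMIs if that had at least 2 times the next, and was otherwise left between gates. Cells with general epithelial markers alone were called segment-unnamed. The gates read 112 genes, of which 1, Adgre1, was in no table. Doublets were not removed; leaving out the highest 5% of Scrublet scores (scanpy 1.11.5) was an alternative.

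Counts were summed per class and library and fitted with edgeR 4.0.16 (R 4.3.3): its filter on low counts, TMM scaling, 1 term per group over all 10 libraries (3 residual degrees of freedom) and the quasi-likelihood F test, its p-values adjusted over all genes by Benjamini-Hochberg and read at 0.05. SE is the log2 change divided by the square root of F. The steps were tested on simulated counts. The 2 libraries of a day were not the same library deposited again: chi-square over degrees of freedom between their counts was 21.3, 30.7 and 16.1 for days 7, 11 and 14. Library totals were 7091848 to 31632205 UMIs. Named genes were the called members of each list, largest change first, at most 4 a list, and the 10 and 5 genes most like Clu over tubular sums and over classes with a level of at least 5. Of these named genes, 2 are not reported here.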

Additional observations from a re-analysis of the deposited data

Results flagged for a closer look

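The change in Clu from control to day 7 differed between cell classes in 5 tests of the difference itself, all of which use the same control library. It was larger in tubular than in endothelial-like cells by 2.17, in thick limb than in proximal cells by 2.43, in principal than in proximal cells by 1.04 and in thick limb than in principal cells by 1.38 on the log2 scale. DESeq2 called neither of the last 2, and the principal against proximal difference was also not called with 1 more marker in every gate (0.17) or without replicate 2 of day 7 (0.67). It was smaller in distal than in principal cells (-2.79, and -1.30 with 1 more marker required in every gate).

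Clu was also present in cells and barcodes that entered no comparison. Cells that passed no gate had 1656 CPM on day 1 against 84.9 in the control. Cells left between gates had 12548 CPM in replicate 1 of day 7 against 831 in the control. Of the 1936 cells between gates, 686 (35.4%) had passed gates of distal segments only, and these held 68.7% of the Clu UMIs of such cells. Barcodes removed by the filters had 3214 CPM on day 1 (17 barcodes) against 237 in the control (611 barcodes). No group held 4 libraries, so no library was tested as standing apart within its group.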

How the results depend on the processing

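Over 50 results and 19 settings, 592 of 626 alternatives kept the direction and the side of the threshold. The calls from day 7 to day 11 in all tubular cells, and from control to day 7 and from day 7 to day 14 in all tubular, proximal, thick limb, distal, principal, intercalated and endothelial-like cells kept both under every setting run. Those that did not were mostly day 14 against the control, and the cause was not tested. The control has 1 library, so leaving it out could not be run, and macrophages of day 14 against the control could not be fitted from those groups alone. Shares of cells with Clu depend on depth: thinning to 500 UMIs moved 95 such values beyond their interval and kept 46.

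With at most 25% mitochondrial UMIs, day 11 against control in tubular cells was called at 1.25 and day 14 against control gave 1.36 (called) in thick limb and -0.081 in segment-unnamed cells. Without the highest 5% of Scrublet scores, day 14 against control was called in thick limb (1.75) and endothelial-like cells (-1.71). With cells that passed exactly 1 gate it was called in thick limb (1.64) and was -0.27 in tubular cells. With 1 more marker per gate thick limb was called (1.67) and the principal against proximal difference was not (0.17). DESeq2 1.42.0 did not call macrophages on day 7 (7.39), principal against proximal (0.94) or thick limb against principal (1.43). Without the filter on low counts, day 14 against control was called in thick limb (1.40) and endothelial-like cells (-1.56), as was Havcr1 within the 4 distal segments (-0.28), while macrophages were called neither on day 7 (11.84) nor from day 7 to day 14 (-3.66). With no Clu UMI in control macrophages, the fitted 7.39 and 11.84 depend on how each tool treats a count of 0 and are no measured folds. With only the compared groups fitted, day 14 against control was called in thick limb (1.48), endothelial-like (-1.52), principal (0.72) and intercalated cells (0.93). On the log2(CPM + 10) scale proximal lay below macrophage cells (-0.079), and with at least 50 cells per class and library thick limb passed over stromal cells (2.01).

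Replicate numbers did not pair the libraries (correlations of deviations 0.107, -0.0126 and -0.0596). With the replicate block over days 7, 11 and 14, segment-unnamed cells from day 7 to day 14 were not called (-3.23), and the other 10 results fitted kept their call.

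Leaving out each replicated library in turn gave, for day 14 against control, -0.028 to 0.39 in tubular, -0.036 to 0.34 in proximal, 0.67 to 2.02 in thick limb, -0.028 to 0.35 in segment-unnamed, -1.67 to -1.38 in endothelial-like and -0.16 to 0.57 in distal cells. Thick limb was then called without replicate 2 of day 11 or replicate 1 of day 14, and endothelial-like cells without either library of day 7. Signs turned without replicate 2 of day 14 in tubular, proximal and distal cells and without replicate 1 of day 14 in segment-unnamed cells. The Havcr1 difference within proximal cells ran from -0.53 to -0.27, and the principal against proximal difference from 0.67 to 1.33.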

Other observations

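Clu UMIs were also counted in 2 rarer classes. Urothelial-like cells, 40 in all, had 12064 CPM on day 1 (4 cells), 7085 on day 2 (2 cells), 1321 on day 4 (6 cells), 3906 and 2872 in replicates 1 and 2 of day 7 (3 and 17 cells) and 306 in replicate 1 of day 11 (8 cells). Neutrophil-like cells, 116 in all, had 3292 CPM on day 1 (39 cells), 1491 on day 2 (57 cells), 475 on day 4 (7 cells) and 2693 and 2161 on day 7 (8 and 5 cells). Macrophage-like cells had 1287, 370, 374, 1030 and 372 CPM in the same libraries. The neutrophil values of days 4 and 7 rest on 10, 21 and 11 Clu UMIs, and the part of free RNA in either class was not tested. Neither class held enough cells in enough libraries to be fitted.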
